A study of Drosophila melanogaster with 16 samples.

Results

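The genes described here are 8 factors of developmental timing in Drosophila melanogaster: chinmo, Imp, Syp, cas, svp, lin-28, mamo and lola. They were chosen by name, and every probe set of the array whose single annotated gene symbol is one of them was taken. This gave 34 probe sets of 8 genes, among 11982 genes with a probe set of their own. Of the 34 probe sets, 27 reached a log2 signal of 4 on at least 2 arrays and were tested. They covered 7 of the genes, since the probe set of lin-28 stayed near the floor of the measurement.

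Neural stem cells of the fly, the neuroblasts, pass through an ordered series of factors, so that neurons born early and late take different fates. In the embryo the series runs through hb, Kr, the Pdm proteins nub and pdm2, cas and grh, and svp acts as a switching factor. In the larva, 2 RNA-binding proteins act in opposite directions: Imp marks young neuroblasts and promotes translation of chinmo, while Syp marks old neuroblasts and represses it. Chinmo is a BTB zinc finger transcription factor that keeps progenitors in an early state, and it is known to sustain neuroblast tumours and to act downstream of JAK/STAT signalling. In imaginal discs it is known from early larval life, with the ecdysone-induced factor Broad (br) taking over late.

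Total RNA of dissected tissue was measured on 16 single-colour Affymetrix Drosophila Genome 2.0 arrays. Wing imaginal discs and brain complexes came from larvae in the third instar grown at 25 °C. Mutant larvae carried lgl27S3/lglE2S31 (3 arrays per tissue, described as null for lgl) or scrib1/scrib2 (3 arrays per tissue), were taken at day 9 after egg deposition and are labelled as having tumours. Wild-type larvae (2 arrays per tissue, labelled as having none) were taken at day 5. Lgl and Scrib are scaffold proteins of epithelial polarity, and each mutant lacked its function in the whole larva. Genotype and age changed together in every comparison with wild type and cannot be told apart, whereas lgl and scrib mutants were of the same age. How many animals each array pooled is not given in the sources used here, and p-values measure only the spread between the arrays of a group, which may be technical.

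The values are log2 signals (GCRMA) with a floor of 2.21, and 40.2% to 43.2% of probe sets reached 4 on each array. The l(2)gl probe set lay at 2.42 to 5.47 in lgl discs, against 10.51 to 10.72 in WT discs, and at 2.21 to 2.82 in lgl brains, against 8.93 to 9.89 in WT brains. The scrib probe set lay at 9.89 to 10.34 in scrib discs, against 9.76 to 10.75 in WT discs, so it does not check that label. The pooled within-group SD was 0.65 log2 in WT discs and 0.66 log2 in WT brains, against 0.33 to 0.45 log2 in the mutant groups, so the 2 arrays of a wild-type tissue differed most from each other. Summed over 12 wing disc markers, the log2 signal was 101 to 108.2 in WT discs and 70.1 to 73.8 in WT brains. Summed over 12 neuron markers it was 37.1 to 51.3 in WT discs and 101.8 to 106.1 in WT brains, as the tissue labels have it.

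In mutant wing discs chinmo rose and Syp fell, and cas appeared in lgl discs alone among the disc groups. In mutant brains Imp and mamo fell and cas rose, while the chinmo probe sets did not pass the test against wild type. A probe set was called at an adjusted p below 0.05 (limma, Benjamini-Hochberg over all 8819 probe sets tested). In lgl discs 6 of the 27 member probe sets were higher and 2 lower than in WT discs (29.6% called), where 18.1% of all probe sets tested were called, 12.0% higher and 6.13% lower. In scrib discs 2 were higher and 5 lower than in WT discs (25.9%), against 23.2% of all, 12.6% higher and 10.6% lower. In lgl brains 6 were higher and 5 lower than in WT brains (40.7%), against 25.3% of all, 14.0% higher and 11.3% lower. In scrib brains 1 was higher and 8 were lower than in WT brains (33.3%), against 34.8% of all, 19.7% higher and 15.1% lower. The shares called in either direction in scrib tissue are thus close to the background. Most of the few member calls in scrib tissue were lower, but several are probe sets of the same gene. The 5 lower in scrib discs were 2 of Syp, 2 of lola and 1 of svp. The 8 lower in scrib brains were 3 of Imp, 2 of mamo, 2 of lola and 1 of Syp. No direction of the members as a set is read from these calls. The individual genes carry the description that follows. Median differences of the member probe sets were 0.06, -0.19, 0.25 and -0.52 log2 in that order of comparisons, beside medians of 0.01, 0.00, 0.04 and 0.07 log2 over all probe sets tested. These comparisons share their wild-type arrays within a tissue.

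Chinmo (chromosome arm 2L) was higher in the discs of both mutants. Its probe set 1628005_at read 8.33, 9.13 and 9.28 in lgl discs, against 7.14 and 5.80 in WT discs. In scrib discs it read 8.41, 8.64 and 8.66. Every mutant disc array lay above both WT disc arrays, which themselves differed by more than the 6 mutant arrays did. The rise was 5.44-fold in lgl discs (2.44 ± 0.38 log2 (SE), adjusted p = 0.00065) and 4.28-fold in scrib discs (2.10 ± 0.38 log2, adjusted p = 0.0018). The second probe set, 1629484_s_at, rose by 2.57 ± 0.43 log2 in lgl discs (adjusted p = 0.0011) and by 2.05 ± 0.43 log2 in scrib discs (adjusted p = 0.0046). The other, 1636985_s_at, stayed at 2.21 to 2.23 on all arrays and was not tested.

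The size of the chinmo rise depended on the WT disc arrays. Without WT disc replicate 2 the difference of 1629484_s_at was 1.61 log2 in lgl discs and 1.09 log2 in scrib discs, and without replicate 1 it was 3.53 and 3.02 log2. WT disc replicate 2, with the lower chinmo signal, stood apart in other genes. The ecdysone-response genes Hr3, Hr4 and Eip78C read 6.34, 5.76 and 6.78 on it, against 2.21, 2.24 and 2.35 on replicate 1, and all 6 mutant disc arrays lay below 4 for each of the 3. The ring gland gene spok read 8.82 on it, against 2.40 on replicate 1. Summed over 8 metamorphic factors the log2 signal was 45.1 to 46.5 in lgl discs and 43.9 to 44.5 in scrib discs, against 45.9 and 57.4 on WT disc replicates 1 and 2. With only the arrays of the groups compared in the fit, the calls ended (adjusted p = 0.066 and 0.096 in lgl discs, 0.055 and 0.11 in scrib discs). In bulk tissue, more cells of a type and more RNA per cell cannot be told apart. Summed over 12 neuron markers, the log2 signal was 59.6 to 66.2 in lgl discs and 41.3 to 43.3 in scrib discs, against 51.3 and 37.1 on WT disc replicates 1 and 2. In scrib discs 9 of the 12 were below 4 on every array (nSyb, brp, Syn, Gad1, VAChT, VGlut, para, cac and fne). Of 11 tested, 1 was called higher and 1 lower there, beside 12.6% and 10.6% of all probe sets. Snap25 read 7.49, 7.42 and 7.65 in scrib discs, against 6.34 and 3.30 in WT discs. Fat body markers, with 5 genes summed, gave 29.9 to 40.3 in lgl discs and 29.8 to 33.4 in scrib discs, against 61.4 and 49.9 in WT discs. Wing disc markers, 12 in all, summed to 90.6 to 93.1 in lgl discs and 92.2 to 96.0 in scrib discs, against 101 to 108.2 in WT discs. The part of these cells and tissues in the chinmo rise and the other disc results was not tested.

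In the brain the chinmo level of each mutant stayed closer to wild type. Probe set 1628005_at read 9.06, 9.36 and 9.47 in lgl brains and 7.78, 7.94 and 8.66 in scrib brains, against 8.88 and 8.65 in WT brains. The difference from wild type was 0.53 ± 0.38 log2 in lgl brains (adjusted p = 0.32) and -0.64 ± 0.38 log2 in scrib brains (adjusted p = 0.21). By 1629484_s_at scrib brains differed from WT brains by -0.92 ± 0.43 log2 (adjusted p = 0.12), and this was called lower when either WT disc array was left out of the shared spread (0.015 each). Between the mutants the gap was larger. In lgl brains chinmo was 2.25-fold higher than in scrib brains by 1628005_at (1.17 ± 0.34 log2, adjusted p = 0.042) and 2.96-fold higher by 1629484_s_at (1.57 ± 0.38 log2, adjusted p = 0.020), with no overlap between the arrays. Both calls rested on single arrays: leaving out lgl brain replicate 1, 2 or 3 gave adjusted p values of 0.075, 0.12 and 0.12 for 1628005_at and 0.058, 0.053 and 0.066 for 1629484_s_at. Leaving out scrib brain replicate 1 or 2 gave 0.14 and 0.13 for 1628005_at, and leaving out replicate 1 gave 0.070 for 1629484_s_at. For 1628005_at the call also ended without lgl disc replicate 2 (0.054) or any scrib disc array (0.055 to 0.059). In discs the lgl level differed from the scrib level by 0.35 ± 0.34 log2 (adjusted p = 0.53).

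**Figure D1:**
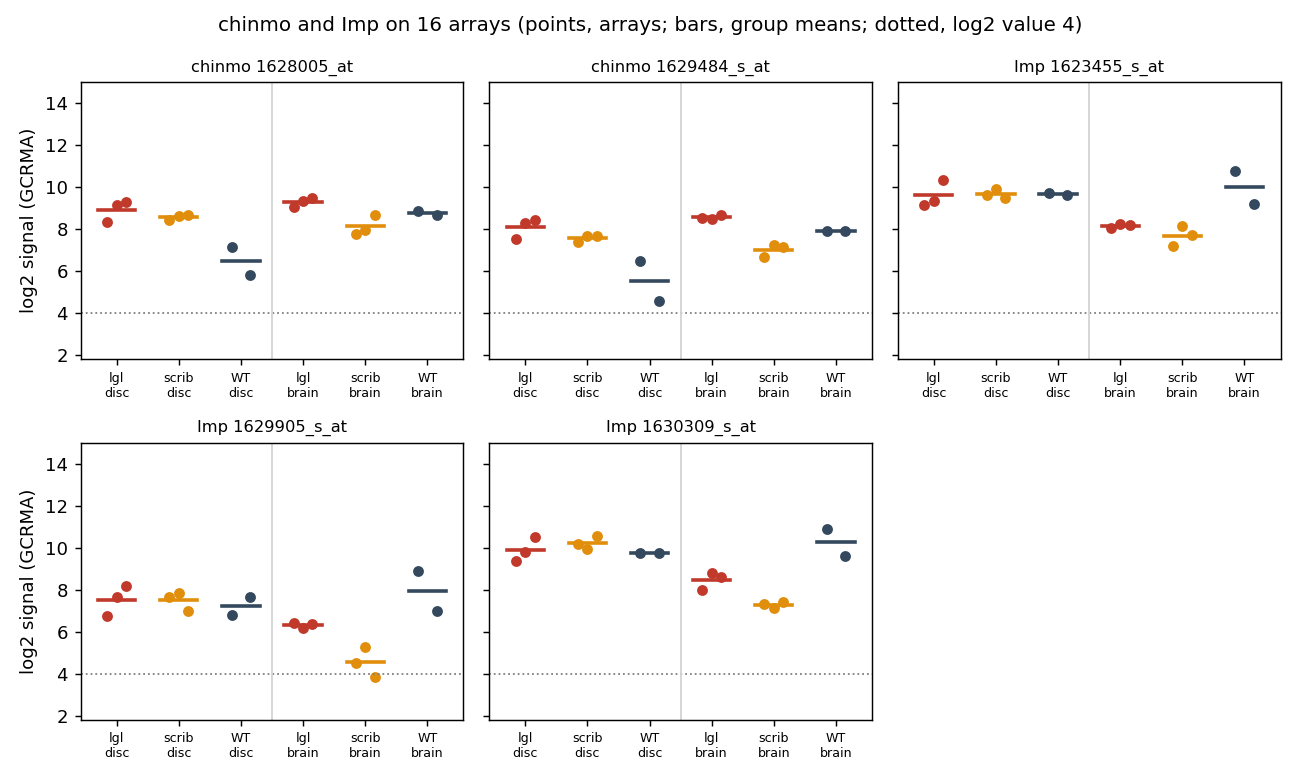
Log2 signal (GCRMA) of the tested chinmo and Imp probe sets on each of the 16 arrays, by group of tissue and genotype (points, arrays; horizontal bars, group means; dotted line, the log2 value of 4 used as a filter). Chinmo (1628005_at) lies at 8.33 to 9.28 in lgl discs and 8.41 to 8.66 in scrib discs, above WT discs, while Imp is level across discs and low in mutant brains.

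The tissue contrast of chinmo was seen in wild type. WT discs were 4.91-fold below WT brains by 1628005_at (-2.30 ± 0.42 log2, adjusted p = 0.00054). In lgl mutants the disc minus brain difference was -0.39 ± 0.34 log2 (adjusted p = 0.39), and in scrib mutants it was 0.44 ± 0.34 log2 (adjusted p = 0.32). Ordered by group mean of 1628005_at, lgl brain, lgl disc, WT brain, scrib disc and scrib brain followed each other with overlapping ranges, and WT disc stood alone at the bottom. The order by 1629484_s_at was the same, but there only lgl disc and WT brain overlapped among neighbours. The change of the effect between tissues was tested directly. By 1628005_at the scrib effect was 2.74 ± 0.54 log2 larger in discs than in brains (adjusted p = 0.0066), and the lgl effect 1.91 ± 0.54 log2 larger (adjusted p = 0.034). With arrays weighted by the spread of their group the adjusted p became 0.20 and 0.35. By 1629484_s_at the scrib effect was 2.97 ± 0.61 log2 larger in discs (adjusted p = 0.0083), and the lgl effect, at 1.92 ± 0.61 log2, was not called (adjusted p = 0.055). The lgl call of 1628005_at also ended without WT disc replicate 2 (1.24 log2, adjusted p = 0.12), WT brain replicate 1 (0.088), lgl disc replicate 2 or 3 (0.071 and 0.074) or lgl brain replicate 1 or 2 (0.074 and 0.058).

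Imp (chromosome X), the RNA-binding protein of young neuroblasts, was level across discs and low in mutant brains. Probe set 1630309_s_at read 9.36, 9.82 and 10.51 in lgl discs and 10.20, 9.95 and 10.58 in scrib discs, against 9.74 and 9.76 in WT discs. In discs the difference from wild type lay between -0.04 and 0.29 log2 over the 3 tested probe sets in lgl mutants, and between 0.01 and 0.49 log2 in scrib mutants. No probe set passed the test there (limma), and the smallest unadjusted p was 0.22. In brains the same probe set read 8.01, 8.79 and 8.62 in lgl mutants and 7.30, 7.13 and 7.41 in scrib mutants, against 10.89 and 9.63 in wild type. All 6 mutant brain arrays lay below both WT brain arrays.

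The fall of Imp was the larger in scrib brains. There 1630309_s_at fell 7.89-fold (-2.98 ± 0.38 log2, adjusted p = 0.00012), a call that held under every alternative run (adjusted p up to 0.029). Probe set 1623455_s_at fell 4.97-fold (-2.31 ± 0.44 log2, adjusted p = 0.0015) and 1629905_s_at at least 10.3-fold (-3.41 ± 0.57 log2, adjusted p = 0.00071), with scrib brain replicate 3 below 4 at 3.83. In lgl brains 1623455_s_at fell 3.59-fold (-1.84 ± 0.44 log2, adjusted p = 0.0095) and 1630309_s_at 3.45-fold (-1.79 ± 0.38 log2, adjusted p = 0.0054). The third differed by -1.63 ± 0.57 log2 (adjusted p = 0.054). WT brain replicate 1 was above replicate 2 by all 3 probe sets (10.79 and 9.20, 8.90 and 7.0, 10.89 and 9.63). Without replicate 1 the differences in lgl brains were -1.05 and -1.16 log2 and the calls ended (adjusted p = 0.13 and 0.076). In scrib brains they were then -1.51, -2.46 and -2.35 log2. Of the 3 Imp calls in scrib brains, that of 1630309_s_at alone held under every alternative run.

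Between the mutants, lgl brains had 2.28-fold more Imp signal than scrib brains by 1630309_s_at (1.19 ± 0.34 log2, adjusted p = 0.041) and at least 3.32-fold more by 1629905_s_at (1.79 ± 0.51 log2, adjusted p = 0.041). Probe set 1623455_s_at differed by 0.47 ± 0.39 log2 (adjusted p = 0.50). Both calls rested on single arrays. For 1630309_s_at the adjusted p was 0.14 and 0.12 without lgl brain replicate 2 or 3, 0.090, 0.12 and 0.076 without scrib brain replicate 1, 2 or 3, and 0.051 to 0.059 without lgl disc replicate 2 or scrib disc replicate 1 or 2. For 1629905_s_at it was 0.11, 0.090 and 0.11 without lgl brain replicate 1, 2 or 3, 0.094 and 0.14 without scrib brain replicate 1 or 3, and 0.052 to 0.058 without lgl disc replicate 2 or scrib disc replicate 1 or 2. With the tissues compared within a genotype, Imp was higher in discs than brains of scrib mutants by all 3 probe sets (7.81-fold by 1630309_s_at, adjusted p = 9.9e-06). In lgl mutants it was higher by 2 of the 3 (2.68-fold by 1630309_s_at, adjusted p = 0.0042), whereas in wild type the disc minus brain difference of that probe set was -0.51 ± 0.42 log2 (adjusted p = 0.37). The fourth Imp probe set, 1633352_at, stayed at 2.21 to 2.25 and was not tested.

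Syp (chromosome arm 3R), the Syncrip homologue that marks old neuroblasts, was lower in mutant discs. Probe set 1640760_at read 6.48, 7.89 and 8.03 in lgl discs and 8.01, 8.18 and 7.91 in scrib discs, against 10.06 and 11.21 in WT discs. It fell 8.99-fold in lgl discs (-3.17 ± 0.43 log2, adjusted p = 0.00025) and 6.07-fold in scrib discs (-2.60 ± 0.43 log2, adjusted p = 0.0011). No mutant disc array reached the level of a WT disc array. Probe set 1634792_s_at read 11.62, 11.97 and 11.95 in lgl discs and 10.93, 10.94 and 10.02 in scrib discs, against 12.43 and 13.13 in WT discs. It fell 4.44-fold in scrib discs (-2.15 ± 0.32 log2, adjusted p = 0.00054) and differed by -0.93 ± 0.32 log2 in lgl discs (adjusted p = 0.065). The 2 probe sets thus agreed in direction in discs and differed in size, and the annotation used here does not say which transcripts each detects. Both calls in scrib discs held under every alternative run (adjusted p up to 0.043 and 0.048), while that in lgl discs ended with only the arrays compared in the fit (adjusted p = 0.059).

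In brains the 2 Syp probe sets went apart. By 1640760_at Syp read 8.88, 9.49 and 9.53 in lgl brains and 9.53, 9.67 and 10.05 in scrib brains, against 10.99 and 11.39 in WT brains. It fell 3.70-fold in lgl brains (-1.89 ± 0.43 log2, adjusted p = 0.0079) and 2.71-fold in scrib brains (-1.44 ± 0.43 log2, adjusted p = 0.021). By 1634792_s_at the difference was 0.22 ± 0.32 log2 in lgl brains (adjusted p = 0.65) and -0.73 ± 0.32 log2 in scrib brains (adjusted p = 0.098). The call of 1640760_at in scrib brains ended without WT brain replicate 2 (0.096), scrib brain replicate 1 (0.059) or scrib brain replicate 2 (0.053). In brains, therefore, Imp was low by all its tested probe sets in scrib mutants, and Syp by 1 of 2. Neuron markers were lower as well: 6 of 11 tested fell in lgl brains and 8 of 11 in scrib brains, beside 11.3% and 15.1% of all probe sets. Their summed log2 signal was 89.4 to 89.9 in lgl brains and 83.5 to 84.9 in scrib brains, against 101.8 to 106.1 in WT brains. Neuroblast markers were higher, with 4 of 8 tested rising in each mutant, beside 14.0% of all probe sets in lgl brains and 19.7% in scrib brains. They summed to 80.3 to 81.9 in lgl brains and 79.1 to 85.0 in scrib brains, against 67.0 and 72.9 in WT brains. Ring gland markers were lower, with 4 of 4 tested falling in lgl brains and 3 of 4 in scrib brains, beside the same 11.3% and 15.1% of all probe sets. Summed over 5 ring gland markers the log2 signal was 15.3 to 20.9 in lgl brains and 20.7 to 26.9 in scrib brains, against 38.0 to 38.3 in WT brains. The part of these cell types in the brain results was not tested.

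Lin-28 (chromosome arm 3L), an RNA-binding protein that blocks maturation of the let-7 microRNA, had a single probe set, 1631236_at. It stayed between 2.21 and 2.36 on all 16 arrays, so no level was measured in either tissue.

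**Figure D2:**
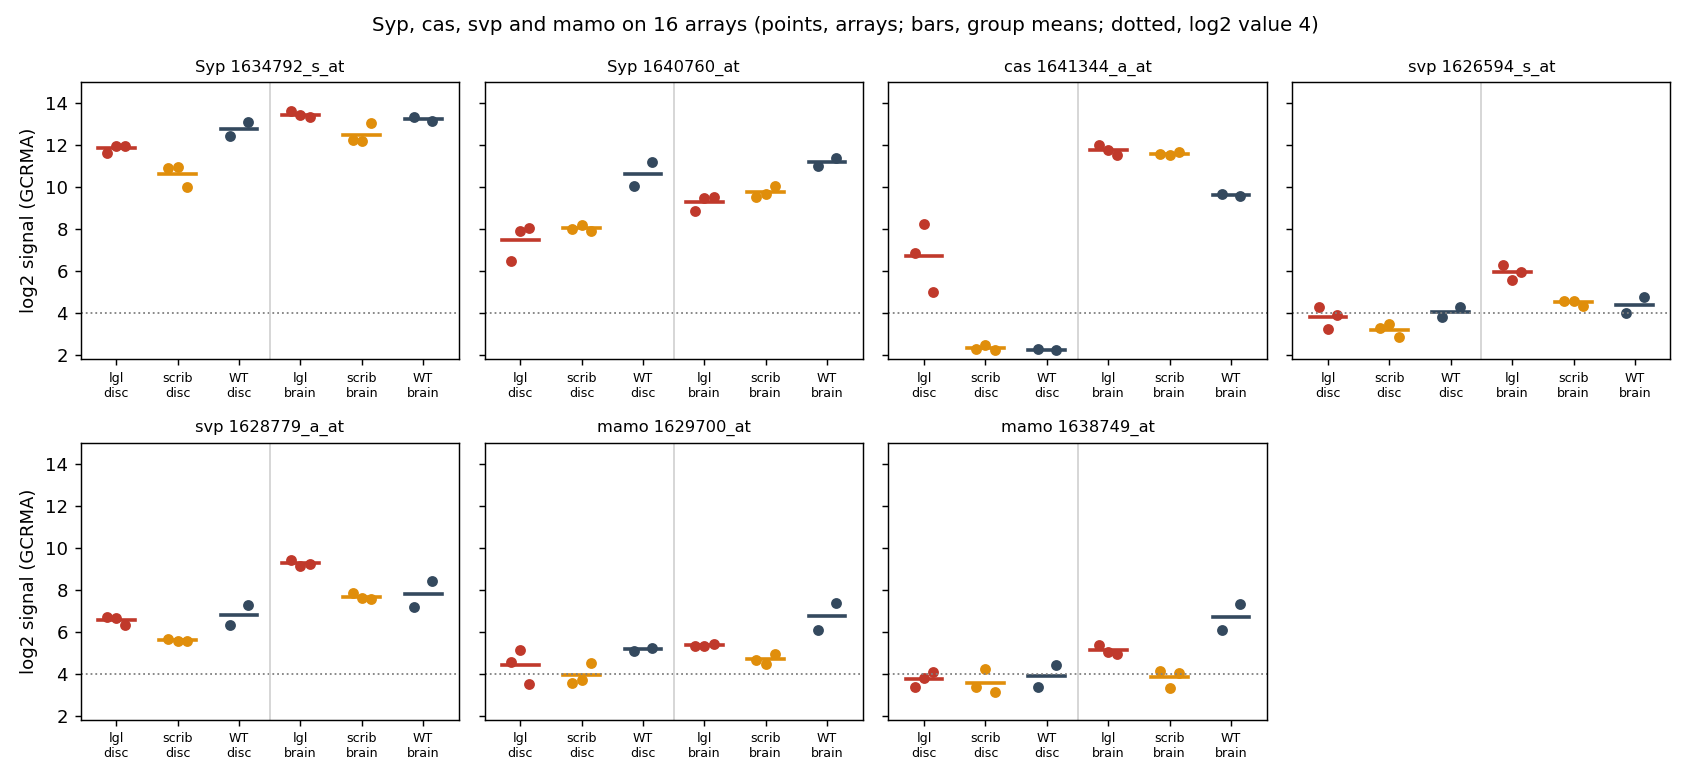
Log2 signal (GCRMA) of the tested Syp, cas, svp and mamo probe sets on each of the 16 arrays, by group (points, arrays; horizontal bars, group means; dotted line, log2 value of 4). Cas reads 5.00 to 8.26 in lgl discs and 2.21 to 2.47 in scrib and WT discs, and it is above wild type in the brains of both mutants.

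Cas (chromosome arm 3R), the zinc finger factor Castor that acts late in the embryonic series, was measured in lgl discs and in no other disc group. Its probe set 1641344_a_at read 6.84, 8.26 and 5.00 in lgl discs and 2.26, 2.47 and 2.25 in scrib discs, against 2.29 and 2.21 in WT discs. The fold was at least 6.51 against WT discs (4.46 ± 0.61 log2, adjusted p = 0.00028) and at least 6.51 against scrib discs (4.38 ± 0.55 log2, adjusted p = 0.00013), with the dimmer arrays set to 4. The difference between lgl and scrib discs, of the same age, held under every alternative run (adjusted p up to 0.015). That from WT discs ended with only the arrays compared in the fit (adjusted p = 0.074). The 3 lgl disc arrays spanned more than 3 log2 units, replicate 2 being the highest and replicate 3 the lowest.

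Several other neural genes were called higher in lgl discs than in WT discs, some with the same order of arrays. The neuroblast scaffold gene mira read 8.57, 9.67 and 6.26 in lgl discs and 3.71, 3.72 and 6.03 in scrib discs, against 5.16 and 4.36 in WT discs. The neuroblast Snail-family gene wor read 7.30, 7.61 and 4.17 in lgl discs and 2.57, 2.73 and 2.99 in scrib discs, against 4.80 and 2.53 in WT discs. The differentiation factor gene pros read 8.54, 10.19 and 9.28 in lgl discs and 2.28, 2.21 and 2.63 in scrib discs, against 4.08 and 2.21 in WT discs. Replicate 3 of wor lay below WT disc replicate 1. Against WT discs the adjusted p was 0.013 for mira and 0.041 for wor (limma). The mira call ended under 4 of 24 alternatives, and that of wor was not followed under them. The neuroblast gene ase read 6.16, 6.63 and 3.33 in lgl discs, against 2.93 and 4.32 in WT discs, and was not called. For cas, mira, wor and pros replicate 2 was the highest lgl disc array, and for cas, mira and wor replicate 3 was the lowest. Summed over 8 neuroblast markers, the log2 signal was 57.8, 61.1 and 46.6 on lgl disc replicates 1 to 3 and 42.0 to 45.1 in scrib discs, against 42.4 and 45.8 in WT discs.

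Some markers of other cell types were also higher in lgl discs, though not all followed the order of cas across the 3 arrays. Of the tested markers, 5 of 11 for neurons, 3 of 8 for neuroblasts, 5 of 9 for glia, 3 of 8 for hemocytes and 3 of 6 for the eye were higher in lgl discs than in WT discs. Over all probe sets 12.0% were higher in that comparison. Summed over 9 glial markers the log2 signal was 69.8 to 74.3 in lgl discs and 55.0 to 57.3 in scrib discs, against 54.3 to 57.8 in WT discs. Summed over 8 hemocyte markers it was 66.8, 56.7 and 64.1 on lgl disc replicates 1 to 3 and 40.5 to 44.2 in scrib discs, against 45.9 to 52.1 in WT discs. The hemocyte sum was thus lowest on replicate 2, the lgl disc array with the highest cas signal. Brp, VGlut and para, of the neuron list, stayed below 4 on every lgl disc array. The part of these cells in the cas signal was not tested. Of the neuron markers, 6 of 11 were also higher in lgl discs than in scrib discs, beside 11.9% of all probe sets.

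**Figure D3:**
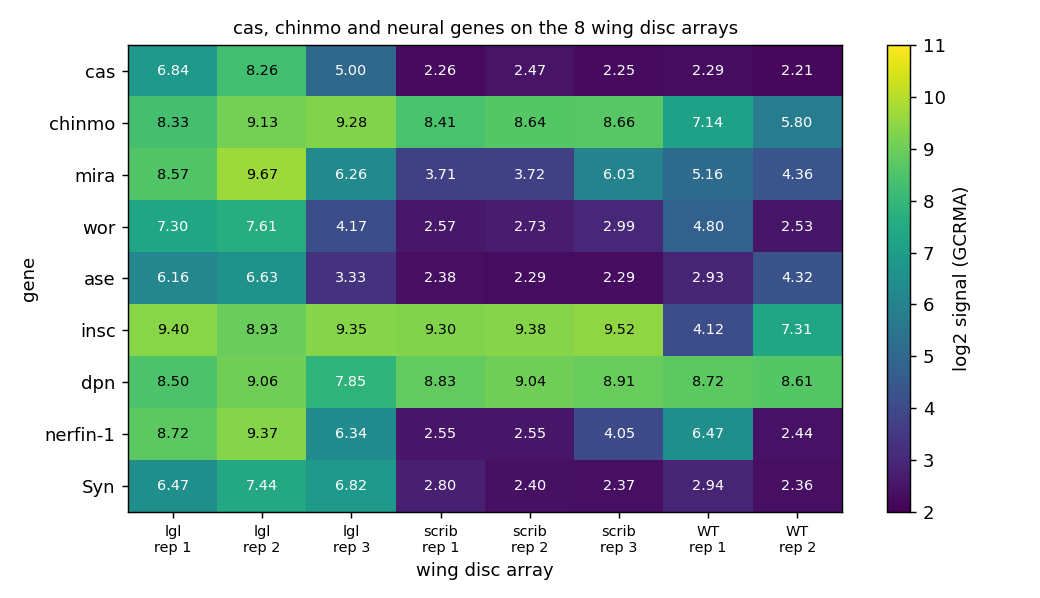
Log2 signal (GCRMA; colour scale and printed numbers) of cas, chinmo (1628005_at) and neural genes (rows) on the 8 wing disc arrays (columns). Cas and Syn are higher on all 3 lgl arrays than on the others, mira, wor and nerfin-1 are lowest on lgl replicate 3 among the lgl arrays, chinmo is high on lgl and scrib arrays alike, and dpn reads 7.85 to 9.06 on all 8.

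In the brain cas rose in both mutants. It read 12.03, 11.79 and 11.54 in lgl brains and 11.56, 11.54 and 11.70 in scrib brains, against 9.67 and 9.60 in WT brains. The rise was 4.43-fold in lgl brains (2.15 ± 0.61 log2, adjusted p = 0.023) and 3.90-fold in scrib brains (1.96 ± 0.61 log2, adjusted p = 0.026). The groups did not overlap, and the SE reflects the spread in lgl discs, because all groups share an estimate of it. With only the arrays compared in the fit the call stood in each mutant, whereas leaving out WT brain replicate 1 (0.099 and 0.089) or replicate 2 (0.055 and 0.076) ended it, as did leaving out lgl brain replicate 1 (0.068) or 2 (0.056), or any scrib brain array (0.052 to 0.059). Between lgl and scrib brains the difference was 0.18 ± 0.55 log2 (adjusted p = 0.88). Disc levels were far below brain levels in each genotype: 33.9-fold in lgl mutants, at least 194-fold in scrib mutants and at least 49.8-fold in wild type, and each of these calls held under every alternative run.

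Svp (chromosome arm 3R), an orphan nuclear receptor gene, rose in lgl brains and stood near wild type in scrib brains. Probe set 1628779_a_at read 9.43, 9.14 and 9.23 in lgl brains and 7.86, 7.60 and 7.57 in scrib brains, against 7.20 and 8.44 in WT brains. The lgl arrays lay above both of the other brain groups, and those 2 overlapped. It rose 2.72-fold in lgl brains (1.44 ± 0.32 log2, adjusted p = 0.0068) and differed by -0.15 ± 0.32 log2 in scrib brains (adjusted p = 0.77). Between lgl and scrib brains it was 3.01-fold higher (1.59 ± 0.29 log2, adjusted p = 0.0036), a call that held under every alternative run (adjusted p up to 0.019). Probe set 1626594_s_at went the same way: at least 2.92-fold above WT brains (1.55 ± 0.32 log2, adjusted p = 0.0049) and 2.68-fold above scrib brains (1.42 ± 0.29 log2, adjusted p = 0.0072). Without WT brain replicate 1, the differences of lgl brains from wild type were 0.82 log2 (adjusted p = 0.086) and 1.16 log2 (0.066).

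In discs svp was lower in scrib mutants by 1 of its 2 tested probe sets. Probe set 1628779_a_at read 6.70, 6.65 and 6.32 in lgl discs and 5.63, 5.57 and 5.56 in scrib discs, against 6.33 and 7.28 in WT discs. It fell 2.34-fold in scrib discs (-1.22 ± 0.32 log2, adjusted p = 0.016), and without WT disc replicate 2 the difference was -0.75 log2 and not called (0.17). In lgl discs it differed by -0.25 ± 0.32 log2 (adjusted p = 0.67). Probe set 1626594_s_at read 3.26, 3.45 and 2.85 in scrib discs, against 3.81 and 4.27 in WT discs. Its difference there, -0.86 log2, was not called. The lgl effect on svp was 1.69 ± 0.45 log2 lower in discs than in brains (difference of -1.69, adjusted p = 0.028). The third probe set, 1635192_at, reached 3.21 at most and was not tested.

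Mamo (chromosome X) encodes a BTB zinc finger factor known from the germline and from mushroom body neurons, where Chinmo acts upstream of it. In the brain it fell in both mutants. Probe set 1638749_at read 5.36, 5.02 and 4.95 in lgl brains and 4.14, 3.31 and 4.03 in scrib brains, against 6.08 and 7.30 in WT brains. The 3 groups did not overlap, with wild type the highest and scrib the lowest. The fall was 2.99-fold in lgl brains (-1.58 ± 0.44 log2, adjusted p = 0.020) and at least 6.20-fold in scrib brains (-2.86 ± 0.44 log2, adjusted p = 0.00038). Probe set 1629700_at fell 2.58-fold in lgl brains (-1.37 ± 0.45 log2, adjusted p = 0.042) and 4.12-fold in scrib brains (-2.04 ± 0.45 log2, adjusted p = 0.0041). In lgl brains both calls ended without WT brain replicate 2 (-0.97 log2 with adjusted p = 0.14, and -0.72 log2 with 0.27) and without lgl brain replicate 2 (0.056 and 0.093) or 3 (0.053 and 0.077). That of 1629700_at also ended without lgl brain replicate 1 (0.095), lgl disc replicate 1 (0.056), scrib disc replicate 1 or 2 (0.050 and 0.054) or any scrib brain array (0.052 to 0.055). In discs 1638749_at was near the filter: it read 3.35, 3.78 and 4.08 in lgl discs and 3.34, 4.2 and 3.13 in scrib discs, against 3.35 and 4.40 in WT discs. Probe set 1629700_at read 4.57, 5.15 and 3.52 in lgl discs and 3.54, 3.68 and 4.53 in scrib discs, against 5.09 and 5.24 in WT discs. By 1629700_at WT discs lay above scrib brains with no overlap. Neither probe set was called against wild type in the discs of either mutant. The other 3 mamo probe sets stayed between 2.21 and 2.90 and were not tested.

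**Figure D4:**
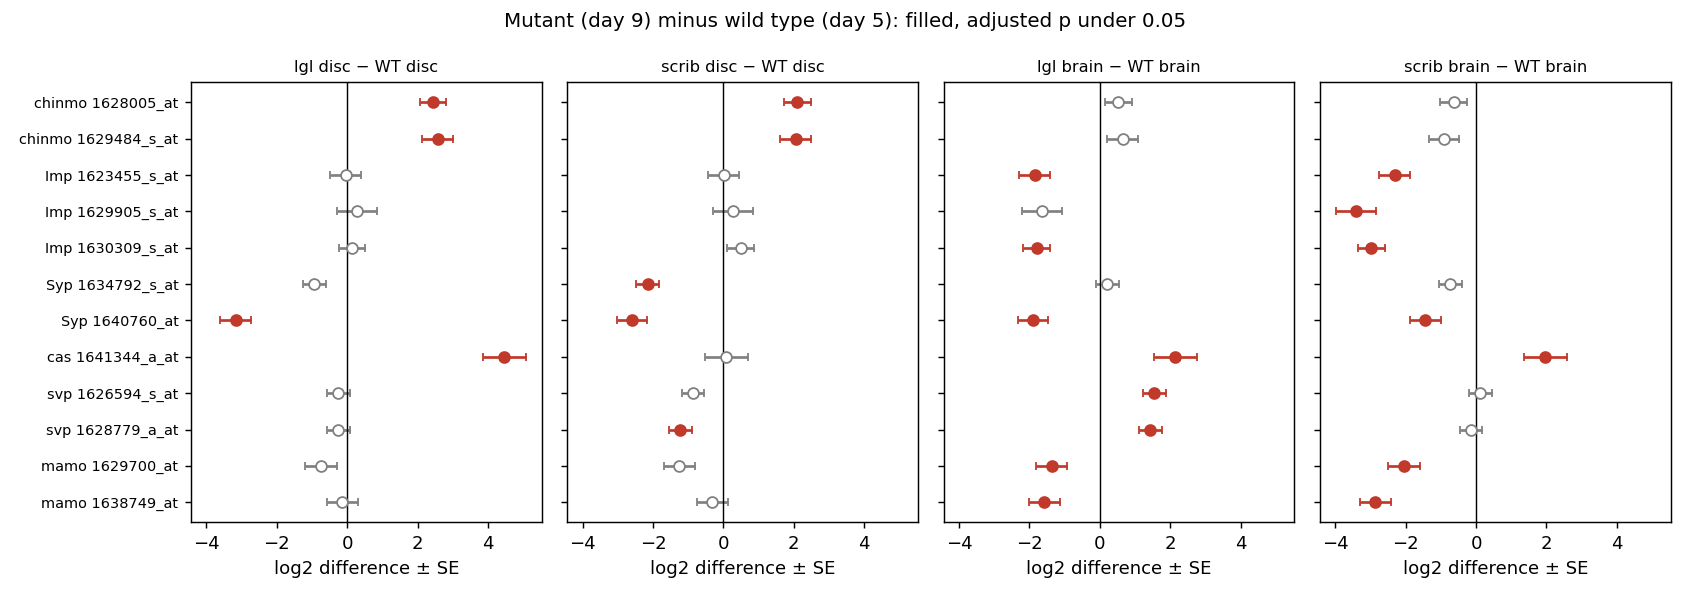
Log2 difference ± SE, each mutant (day 9) minus wild type (day 5), of the 12 tested probe sets of chinmo, Imp, Syp, cas, svp and mamo in discs and brains (limma; filled red, adjusted p under 0.05; open grey, not called). Chinmo lies above 0 and Syp below 0 in the discs of both mutants, and Imp and mamo lie below 0 in both mutant brains.

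Lola (chromosome arm 2R), a BTB zinc finger gene whose many splice forms share an N-terminal part and differ in their zinc fingers, is known for axon guidance and for keeping neurons differentiated. Its 15 probe sets were all tested and did not move together. In lgl discs 3 rose and 1 fell, with differences from -0.65 to 1.47 log2 and a median of 0.29. In scrib discs 2 fell (-1.16 to 1.08, median -0.19). In lgl brains 3 rose (-0.99 to 1.22, median 0.34), and in scrib brains 2 fell (-3.53 to 1.20, median -0.10). Of these 11 calls against wild type, a single call, for 1628946_at in scrib brains, held under every alternative run. A rise or fall of lola as a whole can therefore not be given from these probe sets, and the annotation used here does not assign them to splice forms.

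Probe set 1628946_at carried the largest lola difference from wild type. It read 6.91, 6.78 and 6.67 in lgl brains and 4.34, 3.85 and 4.56 in scrib brains, against 8.55 and 7.02 in WT brains. The scrib arrays lay below all others. The fall in scrib brains was at least 11.2-fold (-3.53 ± 0.42 log2, adjusted p = 6.9e-05, up to 0.026 over the alternatives), and lgl brains differed from wild type by -0.99 ± 0.42 log2 (adjusted p = 0.098). Lgl brains were at least 5.61-fold above scrib brains (2.54 ± 0.37 log2, adjusted p = 0.00089). In discs this probe set read 6.37, 5.86 and 6.12 in lgl mutants and 4.93, 5.33 and 4.75 in scrib mutants, against 5.58 and 6.76 in wild type, and no disc comparison passed the test (adjusted p from 0.053 to 0.97).

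A second lola probe set, 1633089_a_at, was higher in lgl tissue. It read 7.30, 7.63 and 7.27 in lgl discs and 6.87, 6.92 and 6.25 in scrib discs, against 6.19 and 6.17 in WT discs. In brains it read 7.04, 6.69 and 6.42 in lgl mutants and 5.23, 5.49 and 4.88 in scrib mutants, against 5.93 and 5.67 in wild type. It rose 2.33-fold in lgl discs (1.22 ± 0.25 log2, adjusted p = 0.0041) and 1.89-fold in lgl brains (0.92 ± 0.25 log2, adjusted p = 0.018). In brains it was 2.86-fold higher in lgl than in scrib mutants (1.52 ± 0.22 log2, adjusted p = 0.00087), which held under every alternative run. The rise in lgl brains ended without WT brain replicate 2 (0.064) or lgl brain replicate 1 (0.070).

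**Figure D5:**
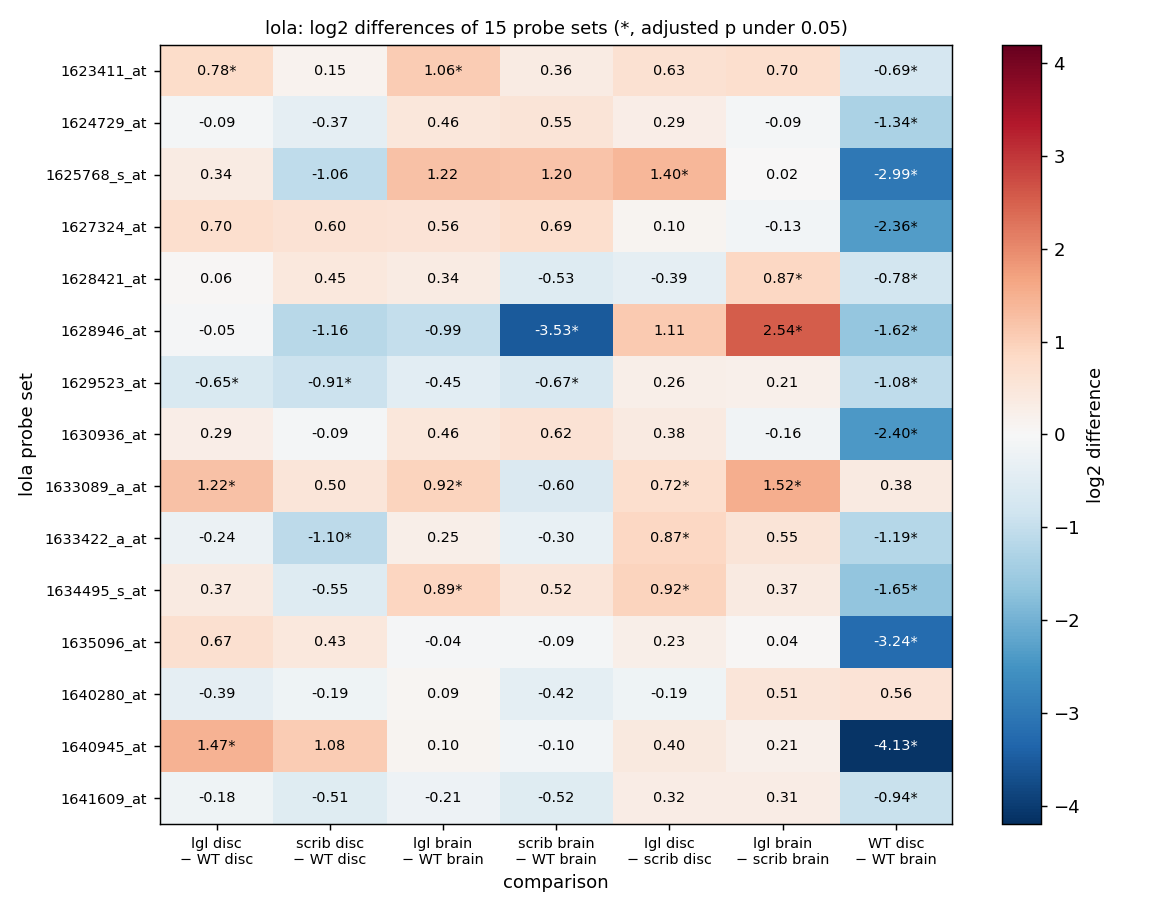
Log2 difference of the 15 lola probe sets (rows) in 7 comparisons (columns; colour scale and printed numbers; stars, adjusted p under 0.05 by limma). Differences from wild type vary between probe sets in both directions, while the last column, WT disc minus WT brain, is called lower for 13 of 15.

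Lgl and scrib mutants, of the same age, differed in these genes in a single direction among the calls. In discs 7 of the 27 member probe sets were higher in lgl than in scrib mutants (25.9%), where 20.5% of all were called, 11.9% higher and 8.54% lower. In brains 9 were higher in lgl than in scrib mutants (33.3%), where 11.5% of all were called, 6.08% higher and 5.42% lower. None was lower in lgl mutants in either tissue by limma, also at an unadjusted p under 0.05, where 9 in discs and 13 in brains were higher. The 9 in brains were 2 of chinmo, 2 of Imp, 2 of svp and 3 of lola, and the 7 in discs were cas, 1 of Syp, 1 of svp and 4 of lola. Of these calls, 4 in brains and 2 in discs held under every alternative run, all of them of cas, svp or lola. Median differences were 0.38 log2 in discs and 0.55 log2 in brains, beside 0.01 and -0.04 log2 over all probe sets tested. The 12 neuron markers summed to 89.4 to 89.9 in lgl brains, against 83.5 to 84.9 in scrib brains, and the part of neurons in these differences was not tested.

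Between tissues the members lay mostly lower in discs. In wild type 19 of 27 probe sets were lower in discs than in brains (70.4%), where 42.8% of all were called, 20.5% higher and 22.3% lower. In lgl mutants 18 were lower and 3 higher in discs (77.8%), where 44.7% of all were called, 20.3% higher and 24.3% lower. In scrib mutants 16 were lower and 5 higher (77.8%), where 46.2% of all were called, 20.1% higher and 26.0% lower. Lola made up 13 of the 19 in wild type. Its largest tissue difference in wild type was that of 1640945_at, which read 5.47 and 7.21 in WT discs, against 10.20 and 10.75 in WT brains (17.5-fold lower in discs, -4.13 ± 0.42 log2, adjusted p = 3.8e-06). In scrib mutants 1625768_s_at was 37.9-fold lower in discs (-5.24 ± 0.44 log2, adjusted p = 4.9e-07).

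The effect of lgl differed between discs and brains for 4 of the 27 member probe sets (14.8%, 2 higher and 2 lower in discs), where 13.5% of all were called, 8.97% higher and 4.50% lower. That of scrib differed for 8 (29.6%, 7 higher and 1 lower), where 11.3% of all were called, 6.33% higher and 4.97% lower.

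By 1640760_at the order of Syp was WT brain, WT disc, scrib brain, lgl brain, scrib disc and lgl disc, with a gap between WT disc and scrib brain and another between lgl brain and scrib disc. Syp in WT discs differed from WT brains by -0.55 ± 0.47 log2 (adjusted p = 0.39), and the 2 groups overlapped. Svp by 1628779_a_at ran from lgl brain through WT brain, scrib brain, WT disc and lgl disc to scrib disc, and of these neighbours WT brain overlapped scrib brain and WT disc overlapped lgl disc. Mamo by 1638749_at was highest in WT brains, then in lgl brains, and the other 4 groups overlapped their neighbours near the filter.

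Other genes of the embryonic neuroblast series moved as well, in several directions. Of 6 listed genes, 5 were tested, each by its brightest probe set. In lgl brains grh, the last factor of the series, rose 5.05-fold (2.34 ± 0.20 log2, adjusted p = 1.1e-05), and in scrib brains 3.52-fold (1.82 ± 0.20 log2, adjusted p = 4.1e-05). It read 10.41, 10.59 and 10.50 in lgl brains and 9.97, 9.96 and 10 in scrib brains, against 8.10 and 8.22 in WT brains, and both calls held under every alternative run (adjusted p up to 0.0096 and 0.012). The earlier factor Kr read 3.31, 3.03 and 3.42 in lgl brains and 4.06, 3.39 and 2.95 in scrib brains, against 6.27 and 4.36 in WT brains. Its fall was at least 2.49-fold in lgl brains (adjusted p = 0.0055) and at least 2.46-fold in scrib brains (adjusted p = 0.0064), and without WT brain replicate 1 both calls ended (0.060 and 0.081). In scrib brains pdm2 was also called lower (adjusted p = 0.043), but both means lay below 4 and no fold is given. It read 2.27, 2.32 and 2.32 there, against 2.47 and 4.90 in WT brains. In all, 2 of 5 rose in each mutant brain (cas and grh), 2 fell in lgl brains and 3, with pdm2, in scrib brains. Over all probe sets 14.0% were higher in lgl brains and 19.7% in scrib brains, and 11.3% and 15.1% were lower. Over the alternatives the counts that rose were 1 to 2 in each, and those that fell 0 to 2 in lgl brains and 0 to 3 in scrib brains.

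In discs, 2 genes of this series fell in each mutant, beside 6.13% of all probe sets in lgl discs and 10.6% in scrib discs (1 to 3 over the alternatives in each). The POU gene pdm2 read 5.27, 5.48 and 4.99 in lgl discs and 6.46, 6.46 and 6.13 in scrib discs, against 7.66 and 8.37 in WT discs. It fell 6.83-fold in lgl discs (-2.77 ± 0.49 log2, adjusted p = 0.0015, up to 0.018 over the alternatives) and 3.18-fold in scrib discs (-1.67 ± 0.49 log2, adjusted p = 0.026). The call in scrib discs ended without WT disc replicate 2 (0.16) or any scrib disc array (0.050 to 0.077). Grh, which also acts in epithelia, fell in scrib discs (-1.12 ± 0.20 log2, adjusted p = 0.0017) and in lgl discs (-0.65 ± 0.20 log2, adjusted p = 0.039). In lgl discs its call ended under 13 of 24 alternatives, and without WT disc replicate 2 the difference was -0.28 log2 (adjusted p = 0.32).

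Of 10 tested factors of the optic lobe and intermediate progenitor series, 3 rose in lgl discs, 1 (grh) fell and 6 were not called, beside 12.0% of all probe sets higher there. Over the alternatives 1 to 5 rose. The Sox gene D read 7.75, 7.76 and 7.53 in lgl discs and 3.82, 3.42 and 4.55 in scrib discs, against 3.75 and 2.34 in WT discs. It rose at least 12.8-fold (adjusted p = 2.4e-05, up to 0.016 over the alternatives) and, unlike cas, was level across the 3 lgl disc arrays. The forkhead gene slp2 rose at least 2.37-fold (adjusted p = 0.0055) and the Pax6 gene ey at least 1.39-fold (adjusted p = 0.0058), with both WT disc arrays of each below 4. Ey read 4.89, 5.10 and 3.42 in lgl discs, so replicate 3 was below 4 as well. The slp2 and ey calls ended with only the arrays compared in the fit (0.063 and 0.15) and with arrays weighted by group (0.089 and 0.17). In scrib discs only grh of this list passed the test, and in lgl brains only grh. In scrib brains grh, opa (1.69 ± 0.54 log2, adjusted p = 0.028) and tll (1.40 ± 0.45 log2, adjusted p = 0.030) rose. Without WT brain replicate 1 these were 0.52 log2 for opa (adjusted p = 0.41) and 0.71 log2 for tll (0.32), and both calls also ended without scrib brain replicate 1 (0.054 and 0.064) or 3 (0.085 and 0.060), and that of tll without replicate 2 (0.060).

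Among neuroblast and differentiation factors that act around Chinmo and Imp, 5 of 11 tested rose in lgl discs (1 to 6 over the alternatives), 5 in lgl brains (0 to 5) and 4 in scrib brains (1 to 5), while in scrib discs 1 rose (0 to 1) and 2 fell (0 to 2). Over all probe sets 12.0%, 14.0%, 19.7% and 12.6% were higher in these comparisons. Pros rose at least 39.3-fold in lgl discs (adjusted p = 9.2e-06, up to 0.025 over the alternatives). In lgl brains pros rose by 2.73 ± 0.56 log2 (adjusted p = 0.0044), a call that ended without WT brain replicate 1 (0.061). The neuroblast repressor gene dpn rose by 1.61 ± 0.29 log2 in lgl brains (adjusted p = 0.0020) and 1.69 ± 0.29 log2 in scrib brains (adjusted p = 0.00081), and weighting arrays by group ended both calls (0.20 and 0.13). Of 8 tested neural RNA-binding protein genes, which include Imp and Syp, 4 fell in scrib discs (2 to 4 over the alternatives) and 4 in scrib brains (1 to 5), beside 10.6% and 15.1% of all probe sets. Of 11 tested neuron markers in scrib discs, 1 was lower, elav, while 1 was higher and 9 were not called. Elav fell by -1.75 ± 0.53 log2 there (adjusted p = 0.031) and by -2.19 ± 0.53 log2 in scrib brains (adjusted p = 0.0068). The call in discs ended without WT disc replicate 1 (0.18) or any scrib disc array (0.060 to 0.075), and that in brains without WT brain replicate 2 (0.066).

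Of 5 tested factors of metamorphosis, 1 passed the test in scrib discs and 1 in scrib brains, both lower, beside 10.6% and 15.1% of all probe sets lower there. Br, which follows chinmo in normal discs, read 11.57, 11.77 and 12.18 in lgl discs and 11.18, 11.12 and 11.41 in scrib discs, against 12.20 and 13.23 in WT discs. It fell in scrib discs (-1.48 ± 0.34 log2, adjusted p = 0.0074), and without WT disc replicate 2 the difference was -0.96 log2 and not called (0.088). Eip93F, a late ecdysone-induced factor, fell at least 5.41-fold in scrib brains (adjusted p = 0.0087), a call that ended without WT brain replicate 2 (0.086). Of 12 tested genes with a BTB domain, 2 rose in each mutant's discs, chinmo and the repressor gene ken (1 to 3 over the alternatives in lgl discs, 1 to 2 in scrib discs), beside 12.0% and 12.6% of all probe sets. In scrib discs 2 also fell, br and lolal (0 to 4 over the alternatives), beside 10.6% of all probe sets. In brains 3 rose and 2 fell in lgl mutants, and 2 rose and 2 fell in scrib mutants. Over all probe sets 14.0% and 19.7% were higher in these brains and 11.3% and 15.1% lower. Ken rose by 1.32 ± 0.19 log2 in lgl discs (adjusted p = 0.00037) and 1.45 ± 0.19 log2 in scrib discs (adjusted p = 0.00021). In brains ken rose by 1.97 ± 0.19 log2 in lgl mutants (adjusted p = 2.9e-05) and 2.15 ± 0.19 log2 in scrib mutants (adjusted p = 8.2e-06), and its 4 calls held under every alternative run.

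JAK/STAT signalling, upstream of chinmo in several tissues, was represented by 6 tested genes, of which 2 rose in the discs of each mutant (0 to 2 over the alternatives in each). Over all probe sets 12.0% were higher in lgl discs and 12.6% in scrib discs. No gene of this list was called in the brains of either mutant. Its ligand gene upd1 read 8.94, 8.46 and 9.09 in lgl discs and 8.98, 8.83 and 8.93 in scrib discs, against 5.61 and 6.63 in WT discs. It rose 6.54-fold in lgl discs (2.71 ± 0.60 log2, adjusted p = 0.0069) and 6.93-fold in scrib discs (2.79 ± 0.60 log2, adjusted p = 0.0055). Both calls ended without WT disc replicate 1 (0.077 and 0.051) and with arrays weighted by group (0.084 and 0.074). A second ligand gene, upd2, read 4.27, 4.01 and 5.17 in lgl discs and 3.86, 3.50 and 4.0 in scrib discs, against 2.26 and 3.23 in WT discs. It rose at least 1.40-fold in lgl discs (adjusted p = 0.0026). In scrib discs it was called higher (adjusted p = 0.037), but both means lay below 4 and no fold is given. That call ended without WT disc replicate 1 (0.32) or scrib disc replicate 1 or 3 (0.088 and 0.11). The transcription factor gene Stat92E fell in scrib discs (-0.67 ± 0.20 log2, adjusted p = 0.032), a call that ended without either WT disc array (0.11 and 0.086) or without scrib disc replicate 2 or 3 (0.051 and 0.11).

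Genes most like chinmo and Imp across the 16 arrays were ranked by the root mean square difference of log2 signals, each gene taken around its own mean, among 4854 genes. Those most like chinmo (1628005_at, which varied by 0.91 log2 around its own mean) were AsnS (0.46), cdi (0.56), Ctl2 (0.59), GMF (0.60) and fal (0.61). Those most like Imp (1630309_s_at, 1.18 log2 around its own mean) were Cda5 (0.63), GstE6 (0.64), CanB2 (0.66), nuf (0.68) and ATPsynepsilonL (0.68). All of these values rest on the same 16 arrays and are a description with no test.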

How the data were processed

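Total RNA of wing discs or brain complexes was measured on 16 Affymetrix arrays in 6 groups of tissue and genotype, taken from the labels. The deposited values are log2 signals; per the submitters' processing notes the authors used GCRMA, whose version is not given. No array was left out, and no pair of arrays was identical. Gene symbols came from the platform annotation supplied; chromosome arms came from a RefSeq gene table. The 183 control probe sets were left out.

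Probe sets at or above 4 log2 on at least 2 arrays were tested (8819 of 18952) with limma 3.58.1 in R 4.3.3, with a mean for each of 6 groups and 10 residual degrees of freedom. There were 11 contrasts, each with its own Benjamini-Hochberg adjustment. Folds are from group means. Where an array of the dimmer group lay below 4 it was set to 4 and the fold is "at least" that value, with none given where both means were below 4. Listed genes were represented by their brightest probe set. The script was tested on simulated data.

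The members, the gene lists and the filter were chosen with earlier results of these data known. Every member probe set was to be reported, of each list up to 4 called genes were named in a comparison, and the 5 genes most like chinmo and Imp were named. Other settings tried were a filter at 6 or none, limma's trend and robust options, added quantile normalization, a replicate block, only the arrays compared, weights by group, and each array left out in turn. Leaving out both replicate 1 wild-type arrays was added after seeing the data. A probe set that a filter removes has no value there, so a call had 23 or 24 alternatives. A lone wild-type array is assumed to vary like the other groups. The number of arrays limits the precision.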

Additional observations from a re-analysis of the deposited data

Results flagged for a closer look

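In 12 cases the effect of a mutant genotype on a member probe set, mutant minus wild type, was tested to differ between discs and brains (limma, adjusted p below 0.05). Values are the effect in discs minus the effect in brains, in log2. For lgl these were 1.91 for chinmo 1628005_at (adjusted p = 0.034), 1.93 for Imp 1630309_s_at (0.033), -1.80 for svp 1626594_s_at (0.021) and -1.69 for svp 1628779_a_at (0.028). That is 14.8% of the 27 member probe sets, where 13.5% of all probe sets were called. Adjusted p values of these 4 reached 0.12 to 0.39 under the alternatives, and each call ended in at least 7 of them.

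For scrib the differences were 2.74 for chinmo 1628005_at (adjusted p = 0.0066), 2.97 for chinmo 1629484_s_at (0.0083), 2.32 for Imp 1623455_s_at (0.030), 3.68 for Imp 1629905_s_at (0.012), 3.47 for Imp 1630309_s_at (0.0015), 2.54 for mamo 1638749_at (0.020), 2.37 for lola 1628946_at (0.022) and -1.07 for lola 1634495_s_at (0.030). That is 29.6% of the member probe sets, where 11.3% of all were called. Weighting the arrays by the spread of their group ended every one of these calls. Of the alternatives run, 11 ended that of Imp 1623455_s_at, 10 that of lola 1634495_s_at, 7 that of lola 1628946_at, 4 that of mamo 1638749_at and 2 that of Imp 1629905_s_at. Without WT brain replicate 1 that of Imp 1623455_s_at was 1.53 log2 (adjusted p = 0.097). For chinmo the effect is a rise in discs with no call in brains, and for Imp it is a fall in brains with no call in discs. Each tissue has its own wild-type arrays, which differ most within their groups.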

How the results depend on the processing

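No member difference reversed its direction where it was called, and neither did any listed-gene difference that was followed. Over all member probe sets, contrasts and alternatives, 6612 values kept their side of the threshold, 354 lost a call and 151 gained one. Of listed genes only called ones were followed, up to 4 per list and comparison with wild type, so none could gain a call. For these 1094 values kept the call and 222 lost it. Counts of called member probe sets moved by over 1.5 times as follows. With no filter, more probe sets were tested and the count was 5 (8 as reported) for lgl against WT discs, 3 (7) for lgl against scrib discs, 4 (9) for lgl against scrib brains, 0 (4) for the lgl effect in discs minus brains and 4 (8) for that of scrib. With only the arrays compared, and fewer samples behind the spread, it was 1 (8) for lgl and 3 (7) for scrib against WT discs, 2 (11) for lgl against WT brains, 6 (19) for WT discs against WT brains and 0 (4) for the lgl effect. With arrays weighted by group it was 5 (8) for lgl against WT discs, 0 (11) for lgl and 3 (9) for scrib against WT brains, 6 (19) for WT discs against WT brains, and 0 for the lgl (4) and scrib (8) effects. Without both replicate 1 wild-type arrays it was 6 (11) for lgl against WT brains. Leaving out 1 array at a time gave 6 to 9 for lgl and 6 to 10 for scrib against WT discs, 4 to 12 for lgl and 6 to 11 for scrib against WT brains, 2 to 8 for lgl against scrib discs, 4 to 12 for lgl against scrib brains, 14 to 19, 20 to 23 and 20 to 22 for discs against brains of WT, lgl and scrib, and 0 to 7 and 5 to 11 for the lgl and scrib effects. Beyond these constructions the cause was not tested.

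Replicate numbers were not used as pairs in the main fit, and 6 of 36 same-number pairs had deviations that correlated above 0.1 (-0.169 to 0.434). The highest value, 0.434, was that of WT discs with WT brains, for replicate 1 and for replicate 2. With 2 arrays per group these are a single observation. The comparisons of WT discs with WT brains, and of effects between tissues, treated these arrays as independent. With the replicate block the counts against wild type were 7 and 9 in lgl and scrib discs and 10 and 12 in lgl and scrib brains, 8 and 9 for lgl against scrib in discs and brains, 19, 21 and 21 for discs against brains of WT, lgl and scrib, and 4 and 9 for the lgl and scrib effects. Values near the floor of 2.21 give only a bound.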

Other observations

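The following genes were chosen after their values were seen. Those most like cas (1641344_a_at) across the 16 arrays, by root mean square difference of log2 signals around each gene's own mean, were Pex7 (0.61), wor (0.75), tap (0.78), mira (0.86) and Liprin-gamma (0.92), where cas itself varied by 4.01 log2 around its mean. Wor and mira are neuroblast genes and tap encodes a neural basic helix-loop-helix factor. Probe set 1637581_at carries the symbols of both lola and pre-lola-G and so was not counted among the members. It read 7.67, 7.65 and 7.63 in lgl discs and 7.69, 7.71 and 7.13 in scrib discs, against 7.12 and 7.91 in WT discs. In brains it read 8.41, 8.29 and 8.37 in lgl mutants and 8.0, 7.64 and 8.19 in scrib mutants, against 7.39 and 7.75 in wild type.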
